A study of Mus musculus with 6 samples.

Results

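The genes described here are 44 interferon-stimulated genes, measured by RNA-seq in the mouse duodenum, the first stretch of small intestine after the stomach. They were chosen from a list of names and kept where the level reached 0.5 FPKM (fragments per kilobase of transcript, scaled to the mapped fragments of each library) in at least 3 of 6 libraries. The list was drawn up with earlier results of these data known. All 44 names were found among 23699 gene models and all 44 passed, as did 13596 gene models in all. Oas2, at 0.427 FPKM in control 2, passed in 5 libraries and the other 43 in all 6. The lowest single value among those 43 was 0.714 FPKM, for Ifi44 in control 2, and no listed gene fell outside the threshold.

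Interferons are secreted proteins that cells release on meeting viral or microbial nucleic acid. Type I and type III interferons act through receptor-bound JAK kinases, which activate a transcription factor complex containing STAT2 and IRF9 that binds response elements in the promoters of target genes. The target genes encode nucleic acid sensors, enzymes that degrade or block viral RNA, GTPases, and the signalling factors themselves, and the gut epithelium keeps part of this programme at a low level through contact with its microbes. Interferon gamma, a type II interferon, acts through a different element and shares many of the targets.

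The study compared 3 control libraries (genotype Nkx2.2flox/+, with 1 floxed allele of the transcription factor gene Nkx2.2 and no Cre named on the label) with 3 mutant libraries (Nkx2.2flox/flox with Villin-Cre/+, in which Cre is driven by the promoter of the epithelial gene Villin). Mutant 3 also carried Rosa26Tomato/+, a fluorescent reporter allele. All mice were adults of 6 weeks on a mixed background, and each library was made from the RNA of 2 cm of whole duodenum. Separate animals are not named for the libraries, so p-values measure only the spread between these libraries. Number of floxed alleles and presence of Cre differ together between the groups and cannot be told apart, and Villin-Cre acts in the epithelium, while the RNA came from the whole wall.

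Depth, read from the ratio of FPKM to coverage in the files, was 20956000 to 26254000 mapped fragments a library. Nkx2-2, the targeted gene, had FPKM values of 1.13, 1.32 and 0.779 (controls 1 to 3) and 1.10, 0.736 and 0.221 (mutants 1 to 3), so the groups overlapped; whether the reads come from the floxed part was not tested. Ghrl, which encodes the hormone ghrelin, rose from a control range of 58.6 to 82.4 FPKM to a mutant range of 644 to 1359.6 FPKM (adjusted p = 0.0276, limma), and Tac1, a gut peptide gene, fell (adjusted p = 0.0491, limma). Epcam, an epithelial marker, and Pdx1, a marker of duodenum, were present in both groups, with control means of 742 ± 15.9 and 89.8 ± 3.42 FPKM (SD, n = 3). Xist, the RNA of the inactive X chromosome, was at or below 0.0894 FPKM in the 3 controls and mutant 1 and at 19.7 and 22.5 FPKM in mutants 2 and 3, and the Y-linked gene Eif2s3y was at 31.3 to 42.2 FPKM in the first 4 and at or below 0.123 FPKM in the other two. By these RNAs sex and genotype are partly confounded: mutant 1 against the controls is the comparison within 1 sex.

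No interferon-stimulated gene passed the test over all genes. At an adjusted p under 0.05 (limma on log2(FPKM + 0.5), two-sided, Benjamini-Hochberg adjustment over 13596 genes), 0 of the 44 were called, against 3 genes or 0.0221% of all genes tested; limma-voom on rebuilt fragment numbers called 0 of the 44 and 0% of all genes. Of 52 isoforms of the 44 genes tested, limma called 0, against 0.00617% of all isoforms. At an unadjusted p under 0.05, 14 of the 44 lay higher in mutants by limma, against 1.8% of all genes, and 0 lay lower, against 1.63%. In 18 of the 44 all 3 mutants were above all 3 controls, against 4.05% of all genes, and in 0 all mutants were below, against 3.71%. Some of the 18 were separated narrowly. Oasl1 was at 65.96 FPKM in control 3 and 66.03 FPKM in mutant 3, and Mx2 at 1.73 and 1.75 FPKM in the same libraries. The mean log2 value was higher in mutants in 42 of the 44, against 44.2% of all genes, and the median log2 change, mutant minus control, was 0.48, against -0.02 over all genes tested. In 21 of the 44 the log2 change was at least 0.5, against 2.21% of all genes, and in 7 it was at least 1, against 0.662%. The 44 genes were measured in the same 6 libraries, so their counts are not independent observations of the genotype. The list was also chosen with earlier results of these data known, so the counts describe it and are not a test of it.

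Leaving out single libraries moved these counts. The number of the 44 that lay higher at an unadjusted limma p under 0.05 was 7 without control 1 (1.18% of all genes), 5 without control 2 (1.41%), 24 without control 3 (2.94%) and 6 without mutant 2 (1.13%). It was 14 without mutant 1 (1.19%) and 16 without mutant 3 (4.1%). With limma-voom it was 15, against 1.95%. With the replicate number as a block it was 9, against 3.82% of all genes, and the number called at an adjusted p under 0.05 stayed 0 for the 44 while it went from 3 to 22 over all genes (0.162%). The median log2 change of the 44 was 0.30 without mutant 2 and 0.63 without control 3.

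**Figure D1:**
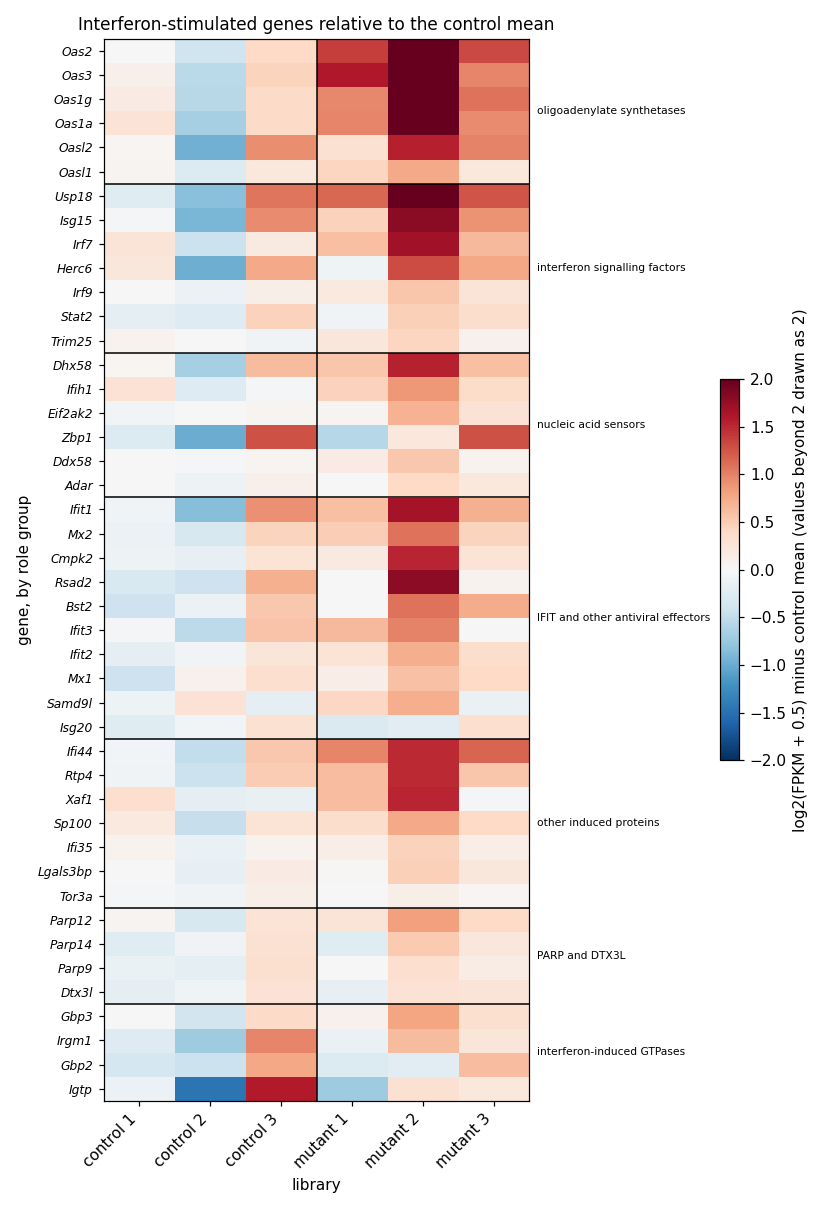
Each row is 1 of the 44 interferon-stimulated genes in its role group and each column a library; colour shows log2(FPKM + 0.5) minus the control mean, with values beyond 2 drawn as 2. Mutant 2 is the darkest column in most rows, control 2 the lowest, and Igtp, Gbp2 and Irgm1, at the bottom, are highest in control 3.

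The libraries did not contribute equally. Relative to the control mean, the median over the 44 genes was -0.04, -0.32 and 0.35 in controls 1 to 3 and 0.21, 0.77 and 0.35 in mutants 1 to 3, on the log2 scale. The groups therefore overlapped: control 3 lay above mutant 1 and level with mutant 3. Mutant 2 held the highest value in 37 of the 44, against 11.7% of all genes, and control 2 the lowest in 35, against 11.9%. Control 3 was the highest of the 3 controls in 38 of the 44, against 40.7% of all genes. Within the mutants, 21 of the 44 were higher in mutant 1 than in every control (19.6% of all genes), 37 in mutant 2 (18.4%) and 28 in mutant 3 (30.8%). Mutant 1, the only mutant with the Y-linked RNAs and without Xist, had a median of 0.21. What part the difference in sex has in the other two was not tested.

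Promoter sequences are shown for 8 of the genes, since many interferon targets are known to carry a response element, and the sequences show where its letters lie, or are not found, in genes whose groups separated and genes whose groups overlapped. The RefSeq promoter table (build GRCm38.p6, 250 bases before to 50 after each start; the expression files use mm9) held 34 of the 44. The core of the interferon-stimulated response element was searched as GAAA-NN-GAAA (GAAA, any 2 bases, GAAA) and the interferon gamma activated site as TTC-NNN-GAA (TTC, any 3 bases, GAA), on both strands; sites of the 2 motifs overlapped in 1 of the genes. The response element core was present in 16 of the 34, which is 47.1%, against 3.99% of 27025 genes in the table. The interferon gamma site was present in 8 of the 34, which is 23.5%, against 9.55%. The stretches are the 150 bases before the start, 5′ to 3′ in the direction of the gene, with the bases of the response element core in capitals, or of its reverse complement in Gbp2.
Oas3, chr5:120777660-120777809, minus strand: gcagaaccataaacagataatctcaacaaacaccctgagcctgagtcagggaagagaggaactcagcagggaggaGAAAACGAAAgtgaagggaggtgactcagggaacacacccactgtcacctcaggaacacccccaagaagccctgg
Oas1a, chr5:120907526-120907675, minus strand: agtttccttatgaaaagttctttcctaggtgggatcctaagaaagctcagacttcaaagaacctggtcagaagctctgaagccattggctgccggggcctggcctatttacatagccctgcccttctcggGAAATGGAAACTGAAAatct
Oas1g, chr5:120887614-120887763, minus strand: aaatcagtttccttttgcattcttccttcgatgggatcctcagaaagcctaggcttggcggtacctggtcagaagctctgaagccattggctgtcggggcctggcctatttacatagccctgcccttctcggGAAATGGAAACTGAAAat
Isg15, chr4:156200819-156200968, minus strand: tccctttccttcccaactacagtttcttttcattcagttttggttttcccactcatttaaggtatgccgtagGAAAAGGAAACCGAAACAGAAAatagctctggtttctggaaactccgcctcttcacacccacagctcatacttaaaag
Gbp2, chr3:142620513-142620662, plus strand: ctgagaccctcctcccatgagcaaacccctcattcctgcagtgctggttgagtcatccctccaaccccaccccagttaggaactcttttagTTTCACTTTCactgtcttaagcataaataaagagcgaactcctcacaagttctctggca
Igtp, chr11:58199406-58199555, plus strand: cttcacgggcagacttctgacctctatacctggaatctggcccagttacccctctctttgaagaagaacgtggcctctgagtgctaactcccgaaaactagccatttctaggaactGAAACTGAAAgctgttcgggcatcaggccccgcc
Ifi44, chr3:151749911-151750060, minus strand: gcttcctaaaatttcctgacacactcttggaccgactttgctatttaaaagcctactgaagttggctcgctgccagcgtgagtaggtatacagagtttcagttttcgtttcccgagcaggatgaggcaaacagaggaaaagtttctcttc
Irf7, chr7:141266425-141266574, minus strand: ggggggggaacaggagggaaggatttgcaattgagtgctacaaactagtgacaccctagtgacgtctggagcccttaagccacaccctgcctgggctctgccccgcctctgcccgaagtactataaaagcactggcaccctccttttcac

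Oas3 holds 1 match, whose first base is 75 bases before the start. Oas1a and Oas1g, near-identical copies, share a run of 56 bases and hold 2 overlapping matches each, beginning 20 and 14 bases before the start in Oas1a and 18 and 12 in Oas1g. Isg15 holds 3 overlapping matches, beginning 78, 72 and 66 bases before the start. Gbp2 holds 1 match on the opposite strand, 59 bases before the start, and Igtp 1 match, 34 bases before it. Ifi44 and Irf7, whose groups separated, hold 0 matches in the window. By role, the element was found in 4 of 4 GTPase genes, 3 of 4 sensors, 3 of 5 oligoadenylate synthetases, 4 of 8 antiviral effectors, 2 of 6 signalling factors, 0 of 2 PARP and DTX3L genes and 0 of 5 other induced genes with a promoter in the table. In the 3 sensors, Ddx58, Eif2ak2 and Ifih1, the match began after the start. Before the start, 13 genes held the element. Of the 16 genes with it, 6 had all mutants above all controls (4.05% of all genes) and the median log2 change was 0.56. Of the 18 without it, 8 had and the median was 0.46, and of the 10 not in the table, 4 had and the median was 0.52. A match is a string of letters in this window and does not show binding. The search was exact, so an element with a changed base or spacing was not counted, and the 18 genes without a match may hold such a variant.

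The oligoadenylate synthetases, which make the messenger that activates RNase L when they meet double-stranded RNA, had the largest median log2 change of the role groups, 1.35 over 6 genes. Oas2 (chr5:121180342-121199857 in mm9) was at 0.719, 0.427 and 1.10 FPKM for controls 1 to 3, and 2.66, 6.5 and 2.55 FPKM for mutants 1 to 3. Each mutant was above each control, and mutant 2 stood apart above the other two. The means were 0.748 ± 0.336 and 3.90 ± 2.25 FPKM (SD, n = 3 each), with a log2 change of 1.74 ± 0.36 (SE), an unadjusted p of 0.00213 and an adjusted p of 0.866 by limma. Oas2 was scarce, with 34 to 86 fragments rebuilt in each control and 195 to 566 in each mutant.

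Oas3, the longest of the enzymes, was at 3.39, 2.02 and 4.44 (controls) and 10.5, 21.6 and 6.69 FPKM (mutants). Its groups did not overlap either, and the log2 change was 1.73 ± 0.46 (SE; adjusted p = 0.999, limma). Oas1g was at 11.7, 6.95 and 13.8 in controls versus 20.7, 47.0 and 22.7 FPKM in mutants, and Oas1a at 21.6, 11 and 23.3 in the control libraries against 35.2, 71.7 and 34.7 FPKM in the mutants. Both showed the order of Oas2: control 2 lowest, mutant 2 highest, no overlap. Their log2 changes were 1.39 ± 0.39 and 1.3 ± 0.40 (SE; adjusted p = 0.999 for each, limma). Their transcripts are 97.5% identical, so the assignment of reads between the pair is uncertain.

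The 2 genes of the OASL branch, whose proteins carry ubiquitin-like domains, had smaller changes. Oasl1 was at 59.4, 46.9 and 66.0 (controls) and 77.0, 96.9 and 66.0 FPKM (mutants), so that mutant 3 and control 3 were level to the digits shown; its log2 change was 0.47 ± 0.18 (SE; adjusted p = 0.999, limma). Oasl2 was at 24.3, 11.9 and 45.3 in controls versus 29.4, 70.6 and 47.4 FPKM in mutants, with mutant 1 below control 3.

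**Figure D2:**
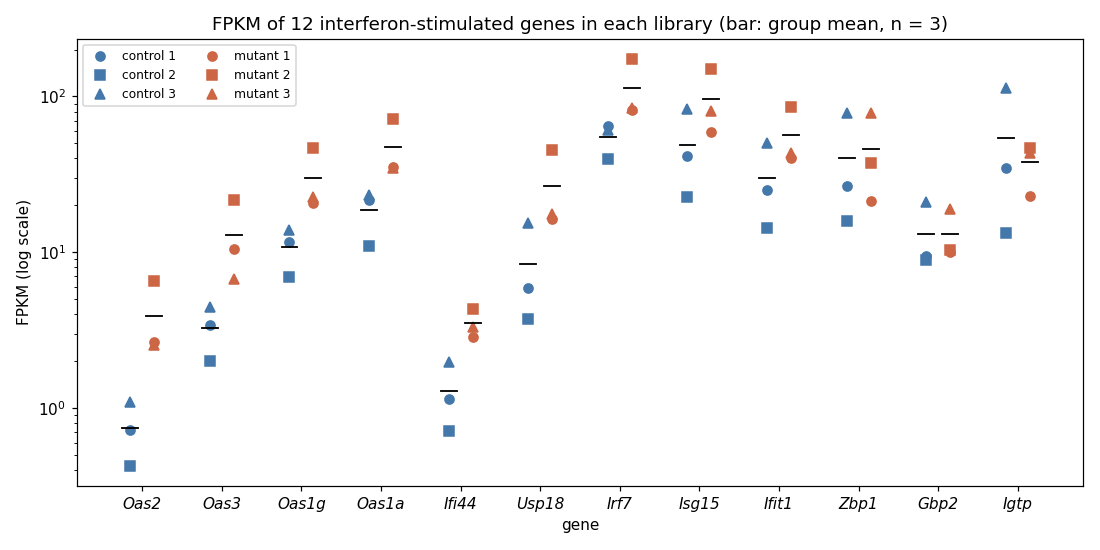
FPKM on a log axis for 12 of the genes, with controls in blue, mutants in orange, a symbol for each replicate number and a bar at each group mean. Oas2, Oas3, Oas1g, Oas1a, Ifi44, Usp18 and Irf7 do not overlap between the groups, while Isg15, Ifit1, Zbp1, Gbp2 and Igtp do, with control 3 at or above mutant 1 in each of those.

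Oas2, Oas3, Oas1g and Oas1a lie in 1 cluster on chromosome 5, of 177 kb from Oas2 to Oas1a. Of 10 Oas gene models in this span or within 500 kb of it, 6 passed the filter on low values. Oas1b, which is outside the 44, was at 1.08, 0.962 and 1.72 in the control libraries against 3.07, 5.74 and 2.65 FPKM in the mutants, with a log2 change of 1.26 ± 0.29 (SE; adjusted p = 0.999, limma). Oas1c, the sixth, overlapped between the groups with a log2 change of 0.41 ± 0.25. The 12 other genes tested within 500 kb of the cluster had log2 changes of -0.34 to 0.15 with a median of -0.07. Of the 12, 0 had all mutants above all controls (4.05% of all genes) and 0 had an unadjusted limma p under 0.05 (3.43%). In 1 of them, Dtx1, all mutants were below all controls (3.71%).

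**Figure D3:**
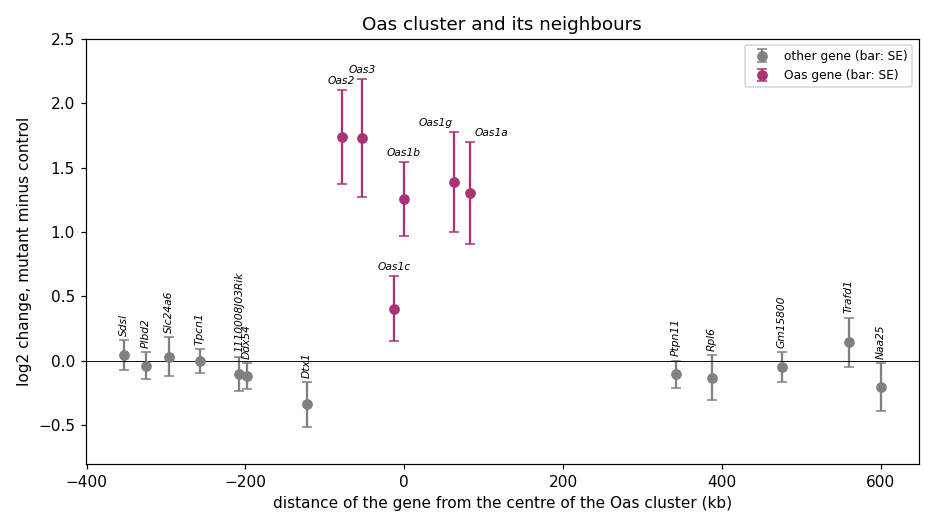
Log2 change (mutant minus control, bars SE) of each gene tested against its distance in kb from the centre of the Oas cluster, with Oas genes in purple. The Oas genes lie between 0.41 and 1.74 and the neighbours between -0.34 and 0.15.

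The 7 interferon signalling factors had a median log2 change of 0.66, and in 4 of them all mutants were above all controls (4.05% of all genes). Irf7, the factor that amplifies type I interferon production, was at 64.4, 39.6 and 61.0 (controls) and 81.5, 173 and 84.5 FPKM (mutants). All mutants were above all controls, with mutants 1 and 3 close together and mutant 2 above them. The log2 change was 0.97 ± 0.34 (SE), with an unadjusted p of 0.0263 and an adjusted p of 0.999 by limma. All 3 annotated isoforms of Irf7 had higher means in mutants, with log2 changes of 1.12, 1.40 and 0.83, and the isoforms of 1763 and 1859 bases did not overlap between the groups.

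Usp18, which removes ISG15 from proteins and damps receptor signalling, was at 5.93, 3.73 and 15.5 in controls versus 16.4, 45.4 and 17.7 FPKM in mutants. The groups did not overlap, but mutant 1 exceeded control 3 by little. The log2 change was 1.67 ± 0.64 (SE; adjusted p = 0.999, limma). Isg15, the ubiquitin-like protein that is conjugated in an interferon response, was at 41.5, 22.5 and 82.6 in the control libraries against 59.1, 149.9 and 80.4 FPKM in the mutants, so control 3 lay above mutants 1 and 3. Its log2 change was 1.06 ± 0.57 (SE; adjusted p = 0.999, limma).

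Irf9, the DNA-binding subunit of the interferon-activated complex, was at 25.5 ± 2.12 (controls) and 32.5 ± 4.57 FPKM (mutants) (SD, n = 3), without overlap. Trim25, a ubiquitin ligase for the RIG-I pathway, was at 40.9 ± 1.91 and 48.8 ± 5.98 FPKM, also without overlap. Stat2, a subunit of the same complex, overlapped at 18.2 ± 5.47 and 21.5 ± 4.09 FPKM, and Herc6, a ligase for ISG15 in the mouse, overlapped at 5.79 ± 3.31 and 9.07 ± 4.26 FPKM.

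The 6 nucleic acid sensors had a median log2 change of 0.33. Ifih1, a sensor of long double-stranded RNA, was at 19.7, 13.4 and 15.7 in controls versus 22.4, 29.7 and 20.8 FPKM in mutants, without overlap, and its log2 change was 0.57 ± 0.18 (SE; adjusted p = 0.999, limma). Dhx58, a regulator of the same sensors, had the largest change of the 6 but overlapped: 4.76, 2.71 and 7.37 in the control libraries against 7.0, 14.4 and 7.26 FPKM in the mutants. In this gene control 3 lay above mutants 1 and 3.

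Eif2ak2, the kinase PKR that halts translation, was at 13.3 ± 0.531 (controls) and 17.3 ± 4.03 FPKM (mutants), and Ddx58, which encodes RIG-I, was at 11.9 ± 0.448 and 14.4 ± 2.73 FPKM, both without overlap. The margins were narrow. Eif2ak2 was at 13.79 FPKM in control 3 and 13.86 FPKM in mutant 1, and Ddx58 at 12.36 FPKM in control 3 and 12.44 FPKM in mutant 3. Adar, which edits adenosine in double-stranded RNA, was at 12.5 ± 0.876 and 14.5 ± 2.00 FPKM with overlap. Zbp1, a sensor of Z-form nucleic acid, was at 26.5, 15.9 and 78.3 in controls versus 21.4, 37.2 and 78.5 FPKM in mutants. It was high in control 3 and mutant 3 alike and low in control 2 and mutant 1, and its log2 change was 0.30 ± 0.76 (SE).

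The 10 IFIT and other antiviral effectors had a median log2 change of 0.58, and in 2 of them all mutants were above all controls (4.05% of all genes). Mx2, named for a dynamin-like GTPase that blocks viruses, was at 1.02, 0.811 and 1.73 in the control libraries against 1.81, 2.98 and 1.75 FPKM in the mutants. The highest control and the lowest mutant were close. Its log2 change was 0.67 ± 0.26 (SE, adjusted p = 0.999 by limma). Nearly all of its signal was assigned to an isoform of 2422 bases whose record carries the prefix of non-coding RNA. In control 2 it went instead to an isoform of 2417 bases, at 0.809 FPKM. Ifit2, a binder of foreign RNA, was at 2.31 ± 0.448 (controls) and 3.35 ± 0.676 FPKM (mutants) and also did not overlap.

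Ifit1, which binds RNA with an unmethylated cap, was at 25.2, 14.3 and 50.4 in controls versus 40.4, 84.9 and 43.6 FPKM in mutants. Control 3 lay above mutants 1 and 3, and the log2 change was 1.00 ± 0.53 (SE; adjusted p = 0.999, limma). The other overlapping effectors were Cmpk2 (14 ± 2.5 in the control libraries against 24 ± 14 FPKM in the mutants), Rsad2, which encodes viperin (5.06 ± 2.57 and 9.05 ± 7.31 FPKM), Bst2, which tethers budding virus (32.8 ± 11.6 and 50.8 ± 18.3 FPKM), Ifit3 (7.89 ± 3.20 and 11.6 ± 3.96 FPKM), Mx1 (1.79 ± 0.574 and 2.43 ± 0.463 FPKM) and Samd9l (16.6 ± 3.17 and 21.5 ± 6.24 FPKM). In Cmpk2 and Rsad2 the SD of the mutants is set by mutant 2, at 40.5 and 17.5 FPKM, with mutants 1 and 3 at 15.8 to 16.9 FPKM for Cmpk2 and 4.72 to 4.94 FPKM for Rsad2. Ifit3 is 97.8% identical to the transcript of I830012O16Rik, so its reads are uncertain.

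Isg20, an exonuclease of single-stranded RNA, was 1 of only 2 genes of the 44 with a lower mean log2 value in mutants, at 6.02, 6.89 and 8.98 (controls) and 5.82, 6.13 and 9.21 FPKM (mutants). Replicate 3 was the highest in either group, and the log2 change was -0.06 ± 0.21 (SE). The files split Isg20 into an isoform of 1083 bases and an isoform of 892 bases. The longer was at 6.02, 6.88 and 8.70 (controls) and 5.82, 3.60 and 5.35 FPKM (mutants), with each mutant below each control. Its log2 change was -0.52 ± 0.21 (SE, unadjusted p = 0.0506 and adjusted p = 0.999 by limma). The shorter was listed at or below 0.281 FPKM in the controls and near 0 in mutant 1, and at 2.54 and 3.86 FPKM in mutants 2 and 3. It did not pass the filter of 0.5 FPKM in 3 libraries and was not tested.

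The 7 other induced genes had a median log2 change of 0.50, and in 4 all mutants were above all controls (4.05% of all genes). Ifi44, a cytoplasmic protein of the type I response, was at 1.14, 0.714 and 1.99 in controls versus 2.86, 4.31 and 3.33 FPKM in mutants. All mutants were above all controls, and the 3 mutants lay closer together than those of Oas2. The log2 change was 1.21 ± 0.28 (SE), with an unadjusted p of 0.00278 and an adjusted p of 0.999 by limma. In the authors' deposited table Ifi44 had the lowest adjusted p of the 44, at 0.0640 with a log2 fold change of 1.52, and Oas2 had a log2 fold change of 2.42 with an adjusted p of 1. At an adjusted p under 0.05 that table called 0 of the 44, against 0.14% of its 18605 genes, and its log2 fold change was above 0 in 41 of the 44, against 50.7%.

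Rtp4, a chaperone-like protein, was at 19.3 ± 6.69 in the control libraries against 36.6 ± 14.6 FPKM in the mutants, Sp100, a nuclear body protein, at 15 ± 3.95 and 21.1 ± 3.43 FPKM, and Ifi35 at 82.7 ± 6.76 and 98.5 ± 13.6 FPKM, each without overlap. Xaf1, a pro-apoptotic factor, overlapped: mutant 2 was at 24.4 FPKM and the other 5 libraries at 7.08 to 12.8 FPKM. Lgals3bp, a secreted glycoprotein and the most abundant of the 44 by FPKM, was at 152, 136 and 172 (controls) and 155, 213 and 178 FPKM (mutants), with a log2 change of 0.24 ± 0.16 (SE). Tor3a differed least of this group, at 5.68 ± 0.448 and 5.89 ± 0.271 FPKM.

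The 4 PARP and DTX3L genes had a median log2 change of 0.16. All 4 overlapped between the groups, while 4.05% of all genes had all mutants above all controls. Parp12, an ADP-ribosyltransferase, was at 32.4, 24.9 and 37.8 in controls versus 37.5, 55.5 and 41.3 FPKM in mutants, so mutant 1 was just below control 3 and the other two above every control; its log2 change was 0.49 ± 0.20 (SE; adjusted p = 0.999, limma). Parp9 was at 27.7 ± 5.66 in the control libraries against 30.7 ± 3.71 FPKM in the mutants, and its partner Dtx3l, a ubiquitin ligase, at 19.8 ± 3.79 and 21.6 ± 3.72 FPKM. The loci of this pair overlap by 558 bases, and whether counting used the strand is not given in the sources used here, so reads there cannot be told apart. Parp14 was at 18.3 ± 3.77 and 20.8 ± 5.53 FPKM.

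The 4 interferon-induced GTPases, proteins that attack the vacuoles of intracellular microbes, had a median log2 change of 0.14. Of the 4, 3 were highest in control 3, against 19% of all genes. Igtp, an immunity-related GTPase, was at 34.9, 13.4 and 114 (controls) and 22.9, 46.8 and 43.6 FPKM (mutants). Control 3 was above every other library and control 2 below, and the log2 change was -0.07 ± 0.84 (SE). Irgm1, a regulator of that family, was at 13.7, 9.92 and 32.8 in controls versus 14.9, 25.7 and 19.6 FPKM in mutants, again with control 3 highest.

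Gbp2, a guanylate-binding protein, was at 9.40, 8.89 and 21.1 in the control libraries against 9.98, 10.3 and 18.9 FPKM in the mutants, which places the libraries of replicate 3 above the other 4 whatever their genotype. Gbp3 was at 6.04, 4.63 and 8.06 (controls) and 6.52, 10.9 and 7.74 FPKM (mutants), with a log2 change of 0.40 ± 0.24 (SE). The 4 GTPase genes hold the response element of the promoter stretches above. In 0 of the 4 all mutants were above all controls, against 4.05% of all genes, and 4 genes are too few to tell 0 from that share. Control 3 exceeded both other controls more than 2-fold in 6 of the 44, against 1.49% of all genes.

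Libraries that share a replicate number gave a further comparison, which is descriptive. Mutant 1 was higher than control 1 in 39 of the 44 (55.7% of all genes), mutant 2 than control 2 in 43 (33.5%) and mutant 3 than control 3 in 30 (59.5%). The median log2 difference within the pairs was 0.24, 1.21 and 0.05, against 0.03, -0.13 and 0.04 over all genes. In the third pair, 7 genes were more than 1.3-fold higher in the mutant: Oas2 (2.32-fold), Ifi44 (1.67-fold), Oas1g (1.65-fold), Oas3 (1.51-fold), Oas1a (1.49-fold), Irf7 (1.39-fold) and Ifih1 (1.33-fold). That is 15.9% of the 44, against 7.51% of all genes. In the same pair Igtp was at 0.383 of its control, Irgm1 at 0.598, Rsad2 at 0.616 and Ifit3 at 0.663.

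**Figure D4:**
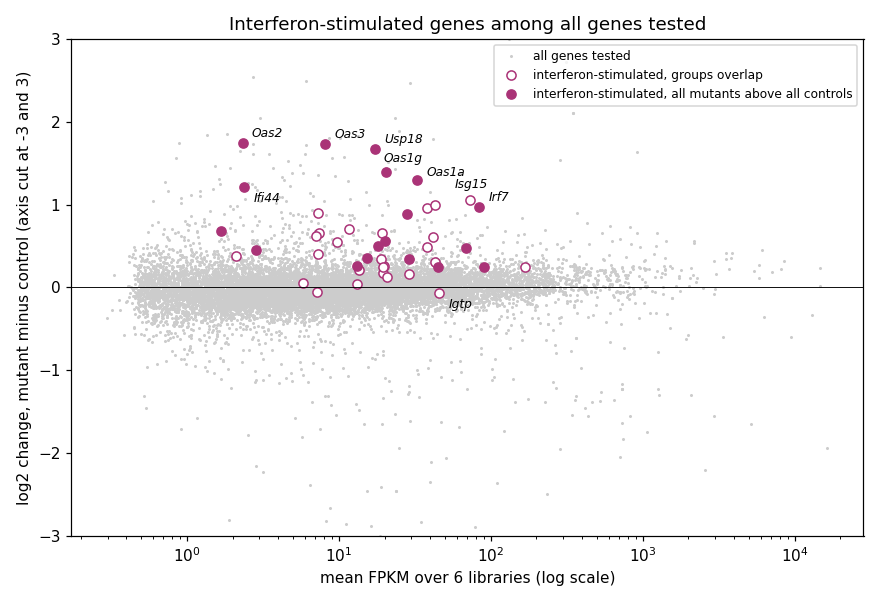
Log2 change (mutant minus control) against mean FPKM on a log axis for all 13596 genes in grey and the 44 interferon-stimulated genes in purple, filled where all mutants were above all controls. The 44 lie from -0.07 to 1.74 with a median of 0.48, at mean levels of 1.68 (Mx2) to 168 FPKM (Lgals3bp).

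The rest of the pathway was read from lists of named genes. Of 19 interferon ligands matched in the files, 15 were listed at 0 in all 6 libraries and 0 passed the filter; the highest value was 0.468 FPKM, for Ifng in control 3. Of 13 receptor, kinase and downstream signalling genes tested, 0 passed the adjusted test, 2 lay higher at an unadjusted limma p under 0.05 (1.8% of all genes) and 0 lower (1.63%), and the median log2 change was 0.14. Those 2 were Ifngr2, a subunit of the interferon gamma receptor (118 ± 7.78 in controls versus 150.2 ± 10.9 FPKM in mutants), and Il10rb, a shared subunit of the type III interferon receptor (71.8 ± 1.29 and 84.4 ± 4.70 FPKM), and their groups did not overlap. Ifnar2, a subunit of the type I receptor, overlapped at 22 ± 2.8 and 29.3 ± 6.10 FPKM. Of 18 genes of the sensing pathway and IRF factors, 0 lay higher or lower at an unadjusted limma p under 0.05, and the median log2 change was -0.05. In 2 of the 18, Traf3 and Ticam1, all mutants were below all controls (3.71% of all genes), and in 0 all were above (4.05%). Irf1, the most abundant, was at 117 ± 18.7 and 101 ± 6.43 FPKM.

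Of 43 other type I interferon targets tested, 0 passed the adjusted test, 5 lay higher at an unadjusted limma p under 0.05 (1.8% of all genes) and 0 lower, and in 6 all mutants were above all controls (4.05% of all genes). Their median log2 change was 0.25, and it was positive in 31 of the 43 (44.2% of all genes). Besides Oas1b, those with an unadjusted limma p under 0.05 were Ddx60, a helicase cofactor of the sensors (7.33 ± 2.73 FPKM, control mean, to 16.3 ± 8.10 FPKM, mutant mean), Trim30a (7.10 ± 2.21 to 13.9 ± 6.57 FPKM), Trim34a (6.64 ± 0.933 to 9.25 ± 2.30 FPKM) and Ifi204 (1.25 ± 0.144 to 1.88 ± 0.367 FPKM). Trim30a overlapped between the groups, with control 3 at 9.44 and mutant 1 at 8.88 FPKM. The 6 without overlap were Oas1b, Ddx60, Trim34a, Ifi204, Apol9a (23.6 ± 0.187 to 49.1 ± 34.7 FPKM) and Trim30d (34.0 ± 1.90 to 39.9 ± 5.42 FPKM). Ifitm2 and Ifitm3, membrane proteins that block viral entry and the most abundant of this list, overlapped, at 156 ± 20.7 and 137 ± 36.4 FPKM and at 126 ± 35.3 and 113 ± 42.8 FPKM.

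Interferon gamma targets had their highest library median in control 3. Of 24 tested, 0 lay higher or lower at an unadjusted limma p under 0.05, the median log2 change was 0.05, and the library medians were -0.19, -0.44 and 0.65 in controls and -0.09, 0.05 and 0.27 in mutants. Ubd, a ubiquitin-like gene of this list, was at 13.9, 2.71 and 122 in the control libraries against 2.07, 1.85 and 59.9 FPKM in the mutants, high in the libraries of replicate 3. Of 23 MHC class I and immunoproteasome genes, 0 reached an unadjusted p under 0.05 by limma and the median was 0.09. The 9 MHC class II genes had a median of -0.74, with the groups overlapping: Cd74 was at 951 ± 505 (controls) and 557 ± 288 FPKM (mutants). Whether the type I and the interferon gamma lists differ from each other in their change was not tested.

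**Figure D5:**
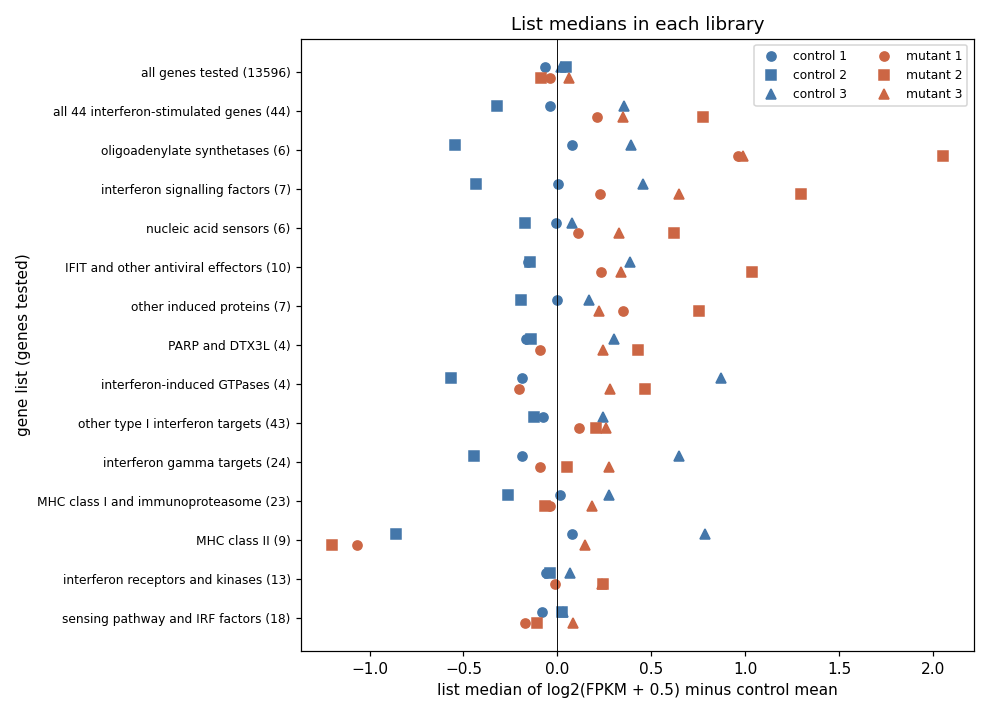
Median over each gene list of log2(FPKM + 0.5) minus the control mean, for each library, with the number of genes tested in brackets. The oligoadenylate synthetases, nucleic acid sensors and other induced proteins have all mutant medians above all control medians. The GTPases, interferon gamma targets, MHC class I and immunoproteasome genes and MHC class II genes have their highest median in control 3.

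Markers of other cells in the wall were set beside these values, since in bulk tissue fewer cells of a type and less RNA per cell cannot be told apart. The summed FPKM of 8 T and NK cell markers was 222 to 342 in controls and 252 to 355 in mutants, that of 8 macrophage and dendritic cell markers 145 to 154 and 140.1 to 178, and that of 6 plasmacytoid dendritic cell markers 24.8 to 35.6 and 22.6 to 34.0. Of the last list, Siglech, its defining gene, was at 0.483 to 1.31 FPKM over the 6 libraries. Most of the plasmacytoid sum was Ly6d, at 13.97 (mutant 2) to 23.6 FPKM (control 3). Most of the T and NK cell sum was Gzma, at 131 (control 2) to 211 FPKM (mutant 1), while Itgae and Cd7 were lowest in control 3. The largest parts of the macrophage and dendritic cell sum were C1qa and C1qb. These sums therefore follow mainly the genes named and are not levels of the cell types. Of 6 B and plasma cell markers 4 were tested, and the list summed to 961 to 1835 FPKM (controls) and 862 to 1704 FPKM (mutants), highest in the libraries of replicate 3. Most of that sum was Igj, at 699.6 (mutant 2) to 1561 FPKM (control 3). The 6 epithelial markers summed to 7210 to 12662 FPKM in controls and 6822 to 14973 FPKM in mutants, with the lowest sums in control 3 and mutant 3 and the highest in mutant 2. These sums follow mainly Fabp2, at 2923 (mutant 3) to 9426 FPKM (mutant 2), and Alpi, at 2199 (mutant 3) to 3480 FPKM (control 1). Other markers of the list had another order: Epcam was at 725 (control 3) to 815 FPKM (mutant 3), and Pdx1 at 76.7 (mutant 1) to 93.7 FPKM (control 2). Among these lists 0 genes passed the adjusted limma test; 1 macrophage and dendritic cell marker, Batf3, lay higher at an unadjusted p of 0.0224. The part of cell composition in the values of the 44 genes was not tested.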

How the data were processed

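RNA of whole duodenum was measured by RNA-seq in 6 libraries, 3 in each group. The submitters' processing notes name CASAVA 1.8.2, TopHat, Cufflinks and DESeq and the build mm9, with no role or order. The deposited FPKM values are Cufflinks-style gene and isoform levels, per the file headers, and depth, read from the ratio of FPKM to coverage, was 20956000 to 26254000 fragments a library. The authors' deposited table gives mean normalized signal (DESeq base means), fold change as a ratio, its log2, and p-values and adjusted p-values. The isoform files also hold coverage, a deposited signal from which fragment numbers were rebuilt: 93.5% of 14973 low values came within 0.1 of whole numbers. Locus starts count from 0 in the files and are printed from 1.

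Gene and isoform FPKM were tested as log2(FPKM + 0.5) where FPKM was at least 0.5 in at least 3 libraries (13596 genes, 16213 isoforms), with limma 3.58.1 in R 4.3.3 (trend and robust prior, two-sided) and Benjamini-Hochberg adjustment at 0.05. The fit has no replicate block. Samples of the same number deviated together (correlations 0.26, 0.25 and 0.58, all above 0.1), but so did control 1 with mutant 2 (0.30) and control 2 with mutant 1 (0.19), and only number 3 stood out (what a number stands for is not given in the sources used here). The block was fitted as the alternative. Other alternatives were pseudocounts of 0.1 and 1, no filter, a minimum of 1 FPKM, quantile and upper quartile scaling, no trend or robust prior, leaving out each library, and limma-voom on the rebuilt fragments. FPKM changes on this scale understate those of low genes.

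Members and lists were chosen with earlier results of these data known. Genes given in full were the markers Oas2, Ifi44 and Irf7, those with the smallest p, the largest change or the highest level in each role group, and those lower in mutants; the other genes of the OAS cluster, Isg15, Usp18, the GTPases and the genes named in the lists for their p or overlap were added after their values were seen. Transcripts of other genes with 95% identity or more, over 50% or more of the listed gene's transcript, were sought with minimap2 2.31-r1302. They were found for 3 of the 44.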

Additional observations from a re-analysis of the deposited data

How the results depend on the processing

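The number of the 44 genes called at an adjusted p under 0.05 was 0 under each of 15 alternatives, and the number of their isoforms called was 0 under each of the alternatives run on isoforms. The number called over all genes, 3, was 1 with no filter, 1 with upper quartile scaling, 0 with limma-voom on rebuilt fragments and 22 with the replicate block, and leaving out a library gave 2 to 68, with 68 without mutant 3 and 8 without mutant 1. The cause was not tested.

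The block on the replicate number left the log2 changes as they were (median of the 44, 0.48) and changed no call among the 44; the smallest adjusted p, for Ifi44, was 0.353 with the block. The median of the 44 was 0.30 to 0.63 when a library was left out and 0.52 with limma-voom.

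The direction held in 38 of the 44 under all alternatives. In the other 6 it turned only when a library was left out: the log2 change ranged from -0.25 to 0.43 for Gbp2, from -0.11 to 0.73 for Irgm1, from -0.20 to 0.94 for Zbp1, from -0.25 to 0.094 for Isg20, from -0.80 to 0.72 for Igtp and from -0.0085 to 0.38 for Parp14.

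With 3 libraries in a group, changes such as that of Oas3 (log2 change 1.73, 198 to 2324 fragments a library) were not called. Oas3 was at 10.5, 21.6 and 6.69 FPKM in mutants 1 to 3, of which mutants 2 and 3 differed from the rest in Xist and Y-linked RNA. By limma Oas3 had an unadjusted p of 0.00936, rank 89 of 13596 genes, and an adjusted p of 0.999. What lies behind the spread between the mutants was not tested. The fewest fragments behind a value were 34, for Oas2 in control 2.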
